A study of Homo sapiens with 6 samples.

Results

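The genes described here encode glycosyltransferases that start, extend, branch and cap mucin-type and terminal glycans. They were the rows of the deposited gene table whose symbols begin with GALNT, ST3GAL, ST6GAL, ST8SIA, FUT, B3GNT, B3GALT, B4GALT or GCNT followed by a family number or name. The rule used names only and no measured value. It took 78 of 20289 genes. RNA was sequenced from 6 libraries labelled as T24, an established human bladder cancer cell line, transfected by lipofection with a pcDNA3.1 plasmid. LINC00665, a long non-coding RNA, was to be overexpressed from this plasmid in 3 libraries, and the other 3 carry the label of the empty plasmid (Vector). The question of the series is how raised LINC00665 alters the transcriptome, with lymph node metastasis as the stated interest. All libraries share the labelled line, the plasmid backbone and the transfection reagent, and the design text of the series names 3 independent experiments without tying them to libraries, so p-values measure the spread between these libraries.

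Totals were 19114096 to 22725687 expected counts in the libraries labelled LINC00665 and 17289788 to 20023417 in those labelled Vector. A sample check found 3 of 6 libraries at odds with the cell line in their labels, so groups are named by their labels, and a difference of cell line and an effect of the plasmid cannot be told apart. LINC00665 itself was not analysed here, so its overexpression was not checked. Marker lists moved with the labels, and over all genes tested 34.2% were higher and 29.3% lower. Of 19 urothelial markers 16 were tested and 15 were higher under the LINC00665 label, with summed levels of 10774 to 12971 CPM against 1042 to 3206 CPM under the Vector label. KRT20 had 0 counts under both labels, and GRHL2 and UPK3A had 0 counts under the Vector label. Of 14 renal tubule markers 6 were tested, 1 was higher and 5 were lower, with sums of 34.1 to 36 CPM under the LINC00665 label and 381 to 545 CPM under the Vector label. UMOD and SLC22A6 had 0 counts under both labels, CDH16 only under the LINC00665 label, and CDH6 and SLC34A1 only under the Vector label. Of 11 fibroblast markers 6 of 7 tested were higher (246 to 274 against 2.38 to 4.57 CPM), with DCN, FAP, POSTN and PDGFRA at 0 counts under the Vector label. All 5 tested of 10 endothelial markers were higher (20.1 to 23.3 against 0.746 to 2.48 CPM), with EMCN at 0 counts under both labels, CLDN5 under the LINC00665 label, and TIE1, FLT1, VWF, TEK and KDR under the Vector label. All 4 tested of 9 leukocyte markers were higher (117 to 189 against 10.9 to 17.3 CPM), with LYZ at 0 counts under both labels, PTPRC under the LINC00665 label, and CSF1R and CD3E under the Vector label. Many of these marker calls are partly set by the filter on low counts (0.511 CPM). All 5 tested endothelial markers fell below it in 1 or more libraries labelled Vector. So did LHX1, the higher fibroblast markers except COL1A1 and the higher leukocyte markers except CD68. Of the higher urothelial markers, only KRT19, KRT7, PPARG, ELF3, FOXA1 and KRT8 reached it in every library labelled Vector. The lower renal tubule markers except PAX8 were below it under the LINC00665 label. The part of these markers in the results below was not tested. In bulk RNA, fewer cells of a type and less RNA per cell cannot be told apart.

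Mucin-type O-glycosylation begins in the Golgi, where polypeptide GalNAc-transferases (GALNT genes) attach N-acetylgalactosamine to serine or threonine. The sugar is then extended by galactosyltransferases (B3GALT, B4GALT) and N-acetylglucosaminyltransferases (B3GNT), branched by GCNT enzymes and capped with sialic acid (ST3GAL, ST6GAL, ST6GALNAC, ST8SIA) or fucose (FUT). Several of the capping enzymes also act on N-glycans and glycolipids. The urothelium carries a layer of glycosylated mucins and blood group sugars on its surface, and truncated or heavily sialylated glycans are known features of carcinoma cells.

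The promoters of 5 genes are printed because these genes showed the 3 largest increases and the 2 largest decreases of a set of members. Each member of the set passed the threshold given below, changed at least 2-fold and had a mean of at least 5 CPM under one label. Each also had 1 listed start and a sequence used here. Sequences are from RefSeq (GRCh38.p14), from upstream of the listed start to just after it, 5′ to 3′ on the gene's strand. A start was listed for 56 of the 78 members. The windows are chr19:17794888-17795187 (plus strand) for B3GNT3, chr2:165794198-165794497 (minus strand) for GALNT3, chr2:231395460-231395759 (plus strand) for B3GNT7, chr9:127916992-127917291 (minus strand) for ST6GALNAC4 and chr4:173168561-173168860 (plus strand) for GALNT7. Capitals mark every match, on either strand, to GGGCGG (the GC box, read on the other strand as CCGCCC) or to CCAAT (read as ATTGG).
B3GNT3: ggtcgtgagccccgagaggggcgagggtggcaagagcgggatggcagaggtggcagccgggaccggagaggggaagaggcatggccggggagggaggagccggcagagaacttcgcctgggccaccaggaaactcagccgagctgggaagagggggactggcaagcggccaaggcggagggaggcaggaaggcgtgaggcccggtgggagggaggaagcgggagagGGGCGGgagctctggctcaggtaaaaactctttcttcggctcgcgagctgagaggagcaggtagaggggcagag
GALNT3: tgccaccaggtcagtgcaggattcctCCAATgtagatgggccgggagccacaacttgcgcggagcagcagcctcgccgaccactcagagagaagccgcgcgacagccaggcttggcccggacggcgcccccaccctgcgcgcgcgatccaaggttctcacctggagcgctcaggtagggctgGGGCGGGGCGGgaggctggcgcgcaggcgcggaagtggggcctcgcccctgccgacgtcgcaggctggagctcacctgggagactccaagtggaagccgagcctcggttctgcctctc
B3GNT7: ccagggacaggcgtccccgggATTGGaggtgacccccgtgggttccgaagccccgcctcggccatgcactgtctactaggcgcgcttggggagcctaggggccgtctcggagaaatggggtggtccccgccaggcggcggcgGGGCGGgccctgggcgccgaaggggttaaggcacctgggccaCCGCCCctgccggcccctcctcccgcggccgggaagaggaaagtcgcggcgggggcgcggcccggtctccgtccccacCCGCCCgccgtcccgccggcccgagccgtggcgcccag
ST6GALNAC4: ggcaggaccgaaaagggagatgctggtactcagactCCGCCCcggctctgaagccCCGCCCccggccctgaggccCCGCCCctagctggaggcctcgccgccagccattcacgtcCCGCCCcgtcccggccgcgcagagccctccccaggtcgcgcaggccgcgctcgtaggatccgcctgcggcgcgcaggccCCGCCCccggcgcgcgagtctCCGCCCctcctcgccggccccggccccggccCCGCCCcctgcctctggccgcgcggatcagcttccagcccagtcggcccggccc
GALNT7: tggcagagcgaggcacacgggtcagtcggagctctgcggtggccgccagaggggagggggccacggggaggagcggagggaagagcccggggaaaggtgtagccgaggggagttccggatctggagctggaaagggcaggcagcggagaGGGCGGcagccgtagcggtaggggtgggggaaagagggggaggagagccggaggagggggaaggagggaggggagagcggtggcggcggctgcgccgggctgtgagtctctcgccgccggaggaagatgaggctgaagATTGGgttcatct

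The first 3 genes were higher and the last 2 lower under the LINC00665 label, and all 5 windows were rich in G and C, with 68.3, 70.0, 77.3, 79.0 and 69.7% G or C in the order printed. ST6GALNAC4 held 7 GC boxes, B3GNT7 held 3, GALNT3 held 2 that share 1 base, and B3GNT3 and GALNT7 held 1 each. One CCAAT match lay in each of the GALNT3, B3GNT7 and GALNT7 windows, beginning at bases -224, -229 and 38 from the listed start. The GALNT7 match thus lies after the start, as does 1 GC box of B3GNT7, which begins at base 13. AACCNGTT (the grainyhead motif), TGANTCA (the AP-1 motif) and TATAAA (the TATA box) had no match in these 5 windows. Over the 56 members with a listed start, using the first start of each gene, 64.3% of windows held a GC box, against 44.6% of the 27305 windows listed for all genes. TATAAA was in 1.79% of member windows and 11.95% of all windows, CCAAT in 26.8% and 35.7%, TGANTCA in 5.36% and 7.76%, and AACCNGTT in 1.79% and 1.73%. The median G and C content was 68.8% in member windows and 58.3% in all windows. All windows were not limited to protein-coding genes or to genes of the deposited table, so they may differ from the members in kind of gene. These matches are descriptions of letters, and no factor's binding was measured.

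The share of these enzymes called was close to that over all genes, with more of the calls higher than lower. Of the 78 members, 56 passed the filter on low counts and were tested with edgeR's quasi-likelihood test, with Benjamini-Hochberg adjustment over all 13552 genes tested and a threshold of 0.05. Of these 56 genes, 30 (53.6%) were higher and 9 (16.1%) lower under the LINC00665 label, and 17 did not pass the threshold. Together these were 69.6% of the tested members, while over all genes tested 63.5% were called, 34.2% higher and 29.3% lower. Counting only calls of log2 fold change 1 or more in size, 28 members were higher and 6 lower, against 42% of all genes called, 26.1% higher and 15.9% lower. The 3 libraries of one label lay wholly above the 3 of the other for 45 of the 56 members and for 70.2% of all genes tested. The median log2 fold change was 1.04 over the tested members and 0.03 over all tested genes, and the median absolute log2 fold change was 1.43 and 0.82. The members' median was 0.26 over the 39 members at 1 CPM or more in all 6 libraries, and 0.37 on the log2(FPKM + 1) scale. Of the 30 higher members, 14 were below the filter level of 0.511 CPM (counts scaled to library size) in at least 1 library labelled Vector, so they passed the filter only through the libraries labelled LINC00665. None of the 9 lower members was below that level in a library labelled LINC00665. A two-sided exact permutation test of 1 gene cannot go below p = 0.1 with 3 libraries per label, and it gave 0.1 for the members whose groups do not overlap.

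**Figure D1:**
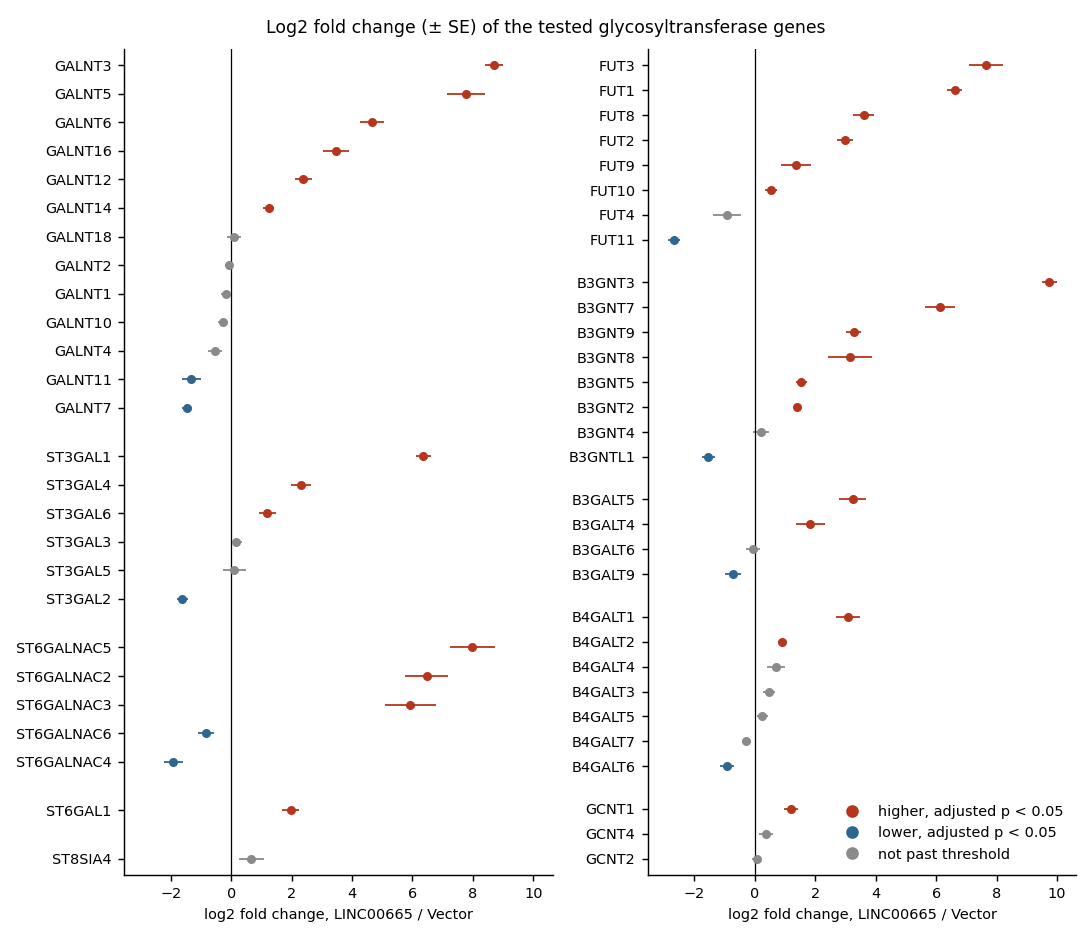
Log2 fold change (LINC00665 over Vector, x axis) of the 56 tested glycosyltransferase genes with its standard error, grouped by family and coloured by the edgeR call. Increases reach 9.74 (B3GNT3), while the largest decrease is -2.68 (FUT11).

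The enzymes that start mucin-type O-glycans overlapped in summed level and differed in which genes made it up. Of 20 GALNT genes 13 were tested, 6 were higher, 2 were lower and 5 did not pass the threshold. Over all genes tested 34.2% were higher and 29.3% lower. The higher genes GALNT3, GALNT5 and GALNT16 passed the filter only through the libraries labelled LINC00665. The summed FPKM of the GALNT genes, a level per gene length, was 155 ± 12.3 under the LINC00665 label and 142 ± 15.1 under the Vector label (SD, n = 3 each), and the libraries of both labels overlapped. GALNT2, a widely expressed initiating enzyme, was the most abundant GALNT transcript by FPKM under both labels, at 42.5 ± 2.43 FPKM under the LINC00665 label and 50 ± 5.89 FPKM under the Vector label. It had 209, 207 and 181 CPM in the libraries labelled LINC00665 and 191, 199 and 237 CPM in those labelled Vector, which overlapped, and the log2 fold change was -0.07 with SE 0.15 (adjusted p = 0.692 by edgeR); fold changes below carry their SE after the ± sign.

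GALNT3, the enzyme that glycosylates and protects the phosphate hormone FGF23, showed the largest GALNT increase in the test of all 6 libraries. It had 71.6, 62.8 and 63.3 CPM in the libraries labelled LINC00665 and 0.186, 0.0555 and 0.207 CPM in those labelled Vector. The groups lay far apart, at a log2 fold change of 8.69 with SE 0.29 (adjusted p = 2.32e-07 by edgeR). It spans 165747591 to 165794682 on the minus strand of chromosome 2 (GRCh38). GALNT6, its close relative in sequence, had 50.3, 47.2 and 42.4 CPM against 2, 0.666 and 2.79 CPM (log2 fold change 4.66 ± 0.40, adjusted p = 2.49e-05). Together GALNT3 and GALNT6 made up 11.8% and 9.18% of the family's FPKM under the LINC00665 label and 0.0499% and 0.608% under the Vector label.

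GALNT5 had 23, 20.1 and 17.3 CPM in the libraries labelled LINC00665 and 0, 0.278 and 0 CPM in those labelled Vector. Its log2 fold change was 7.78 ± 0.63 (adjusted p = 1.65e-05), and it was 11.65 without Vector 2 and 7.16 without Vector 1. GALNT12, which prefers peptides that already carry a sugar, rose by a log2 fold change of 2.39 ± 0.27 (adjusted p = 0.000114), at 19.1, 22.0 and 20.0 CPM against 4.80, 4.44 and 2.38 CPM. GALNT14 rose by 1.24 ± 0.18 on the log2 scale (adjusted p = 0.000477), and GALNT16, at no more than 3.34 CPM in any library, by 3.47 ± 0.44 (adjusted p = 0.000208). Decreases were smaller. GALNT7, another enzyme that acts on already glycosylated peptides, had 16.3, 13.4 and 17.5 CPM against 42.5, 46.1 and 41.2 CPM (log2 fold change -1.46 ± 0.16, adjusted p = 9.24e-05). GALNT11 had 23.5, 20.0 and 20.6 CPM against 80.0, 29.7 and 49.6 CPM, with a wide spread under the Vector label (log2 fold change -1.32 ± 0.32, adjusted p = 0.00743). GALNT1, GALNT10 and GALNT18 did not pass the threshold, at log2 fold changes of -0.17, -0.28 and 0.10. GALNT4 did not pass it either, at -0.54 (adjusted p = 0.0796), and it shares exons with the readthrough gene POC1B-GALNT4, so its reads are uncertain.

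**Figure D2:**
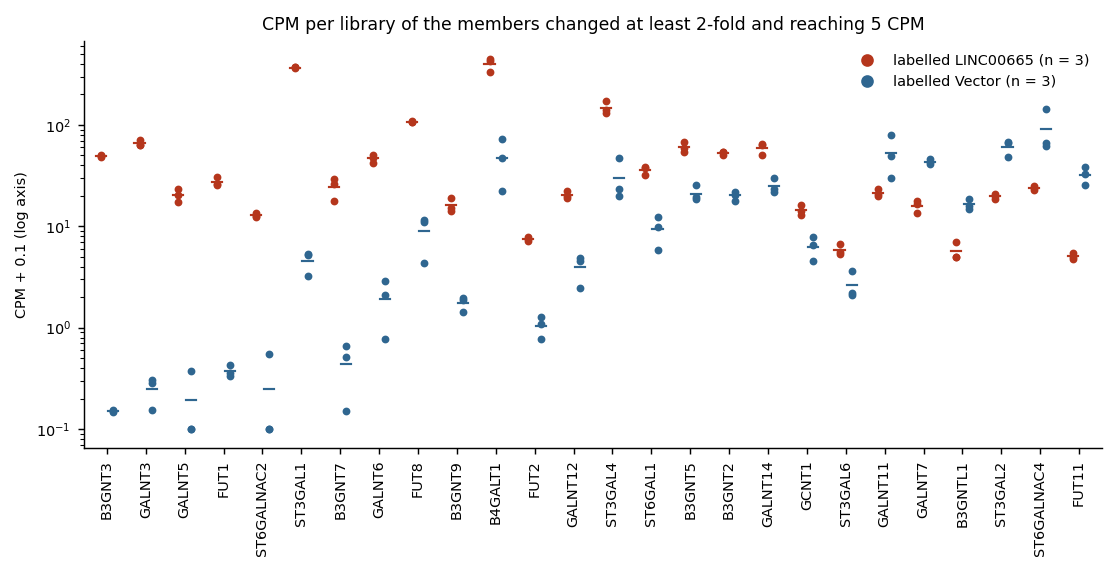
CPM per library on a log axis (0.1 added) for the 26 members changed at least 2-fold with a mean of at least 5 CPM under one label, ordered by log2 fold change, with bars at the group means. For each gene the 3 libraries labelled LINC00665 (left) and the 3 labelled Vector (right) do not overlap, which the choice of genes favours, and the last 6 genes are lower under the LINC00665 label.

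Extension and branching enzymes of O-glycans followed. C1GALT1, which makes the core 1 structure by adding galactose, had 21.5, 17.9 and 19.4 CPM in the libraries labelled LINC00665 and 23.5, 13.5 and 21.2 CPM in those labelled Vector, and the groups overlapped (log2 fold change 0.01 ± 0.22, adjusted p = 0.962). Its chaperone C1GALT1C1 fell by 1.13 ± 0.26 on the log2 scale (adjusted p = 0.00561), at 11.1, 10.5 and 8.99 CPM against 22.7, 14.5 and 29.5 CPM. GCNT1, which makes the core 2 branch, had 16, 14 and 12.8 CPM against 6.43, 4.44 and 7.76 CPM (log2 fold change 1.2 ± 0.24, adjusted p = 0.00259). GCNT2, the I-branching enzyme and the most abundant GCNT transcript by FPKM under both labels, stood at 17.5, 14.9 and 16.3 CPM against 15.4, 15.5 and 15.7 CPM and did not pass the threshold (log2 fold change 0.06, adjusted p = 0.747). GCNT4 did not pass it either (log2 fold change 0.36, adjusted p = 0.206). GCNT3, a core 2 and core 4 enzyme of mucin-producing cells, had 11 counts over the libraries labelled LINC00665 and 67 over those labelled Vector and was not tested, as was GCNT7 with 1 and 6 counts. The core 3 synthase B3GNT6 was not tested either, with 7 counts under the LINC00665 label and 1 under the Vector label.

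The B3GNT family, which adds N-acetylglucosamine to extend glycan chains, held the largest log2 fold change among the members in the test of all 6 libraries. Of 9 genes 8 were tested, 6 were higher, 1 was lower and 1 did not pass the threshold. Over all genes tested 34.2% were higher and 29.3% lower. The higher genes B3GNT3, B3GNT7 and B3GNT8 passed the filter only through the libraries labelled LINC00665. B3GNT3, which extends the core 1 structure, had 48.0, 50.6 and 49.0 CPM in the libraries labelled LINC00665. In those labelled Vector it had 0.0466, 0.0555 and 0.0517 CPM, which is 1 count in each library. The ratio was 964, with a 95% exact binomial interval from 330 to 4678 that covers counting error only, and the edgeR log2 fold change was 9.74 ± 0.25 (adjusted p = 1e-07). B3GNT3 spans 17794828 to 17813082 on the plus strand of chromosome 19 (GRCh38).

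B3GNT7, an enzyme of keratan sulfate chains, had 29.2, 17.5 and 26.2 CPM under the LINC00665 label and 0.42, 0.555 and 0.0517 CPM under the Vector label (log2 fold change 6.13 ± 0.49, adjusted p = 1.57e-05). B3GNT2, the main enzyme of poly-N-acetyllactosamine chains, had 53.8, 50.5 and 53.8 CPM against 21.9, 20.4 and 17.9 CPM (log2 fold change 1.39 ± 0.15, adjusted p = 7.21e-05). B3GNT5, which starts lacto-series glycolipids, had 68.4, 59.8 and 53.5 CPM against 18.3, 19.2 and 25.2 CPM (log2 fold change 1.54 ± 0.18, adjusted p = 0.000144). All 3 genes had groups that did not overlap. B3GNT9 was at 19.1, 15.2 and 14.1 CPM against 1.77, 1.87 and 1.34 CPM (log2 fold change 3.27 ± 0.24, adjusted p = 9.13e-06), and B3GNT8, which stayed below 1 CPM in all 6 libraries, had a log2 fold change of 3.15 ± 0.72 (adjusted p = 0.00512), or 2.55 without Vector 1 and 4.68 without Vector 3. B3GNTL1 fell by 1.55 ± 0.21 on the log2 scale (adjusted p = 0.000327), at 4.93, 6.86 and 4.93 CPM against 14.8, 18.7 and 15.7 CPM. Its exons overlap TBCD on the opposite strand, which had a log2 fold change of -1.30, and reads of the 2 genes cannot be told apart without strand. B3GNT4 did not pass the threshold (log2 fold change 0.19, adjusted p = 0.555).

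By FPKM the make-up of this family differed between the labels. The sum was 69.3 ± 3.86 FPKM under the LINC00665 label and 27.9 ± 1.11 FPKM under the Vector label. B3GNT3 gave 26.9 ± 1.90% of it under the LINC00665 label and 0.0956 ± 0.0417% under the Vector label. B3GNTL1 gave 5.29 ± 1.25% and 43.0 ± 2.76%, in the same order of labels, and B3GNT2 27.4 ± 1.06% and 28.8 ± 3.45%.

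Among the galactosyltransferases, B4GALT1 carried most of the difference. It adds galactose to N-acetylglucosamine on N-glycans and forms lactose synthase in the mammary gland. It had 430, 445 and 333 CPM in the libraries labelled LINC00665 and 47.5, 22.3 and 72.3 CPM in those labelled Vector (log2 fold change 3.09 ± 0.39, adjusted p = 0.00022). The summed FPKM of the 7 B4GALT genes was 262 ± 7.85 under the LINC00665 label and 152 ± 12.0 under the Vector label, and B4GALT1 made up 34.7 ± 3.48% and 7.86 ± 3.67% of it. B4GALT2 rose by 0.90 ± 0.15 on the log2 scale (adjusted p = 0.000906), at 118, 120 and 122 CPM against 71.7, 54.6 and 66.9 CPM. B4GALT6, a lactosylceramide synthase, fell by 0.93 ± 0.24 on the log2 scale (adjusted p = 0.00894), at 6.79, 5.73 and 8.29 CPM against 13.2, 10.2 and 16.1 CPM.

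B4GALT5, the other lactosylceramide synthase and the leading B4GALT transcript by FPKM under the Vector label, had 231, 218 and 211 CPM under the LINC00665 label and 149, 172 and 234 CPM under the Vector label. These groups overlapped (log2 fold change 0.25 ± 0.18, adjusted p = 0.266), and without Vector 3 the adjusted p was 0.0202. B4GALT3 (log2 fold change 0.47, adjusted p = 0.0764) and B4GALT4 (0.71, adjusted p = 0.0681) also missed the threshold, with adjusted p = 0.0049 for B4GALT3 without Vector 2 and 0.00476 for B4GALT4 without Vector 3 (0.0397 with DESeq2). B4GALT7, which builds the linker of proteoglycans, was at -0.29 (adjusted p = 0.127). In the B3GALT family, 2 of 4 tested genes were higher and 1 was lower, against 34.2% higher and 29.3% lower over all genes tested. Both higher genes, B3GALT4 and B3GALT5, passed the filter only through the libraries labelled LINC00665. B3GALT5, which makes type 1 chains, had 2.47, 1.47 and 1.45 CPM against 0.233, 0.111 and 0.207 CPM (log2 fold change 3.23 ± 0.46, adjusted p = 0.000384), and B3GALT4, an enzyme of ganglioside synthesis, had a log2 fold change of 1.84 ± 0.48 (adjusted p = 0.0101). B3GALT6, the proteoglycan linker enzyme that led this family by FPKM under both labels, did not pass the threshold (log2 fold change -0.06, adjusted p = 0.839). B3GALT9 passed it at -0.74 ± 0.26 (adjusted p = 0.0364), and its call was lost without LINC00665 1, 2 or 3 (adjusted p = 0.0866, 0.0995 and 0.053) and without Vector 1 or 2 (0.0836 and 0.0767).

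Sialyltransferases that cap galactose with sialic acid in the ST3GAL and ST6GAL linkages were higher for 4 of 7 tested genes, lower for 1, and 2 did not pass the threshold. Over all genes tested 34.2% were higher and 29.3% lower. ST3GAL1, which caps the core 1 structure, had 372, 363 and 369 CPM in the libraries labelled LINC00665 and 3.12, 5.11 and 5.23 CPM in those labelled Vector. The means were 368 ± 4.72 and 4.49 ± 1.18 CPM (SD, n = 3 each), and the log2 fold change was 6.36 ± 0.24 (edgeR adjusted p = 3.63e-07). ST3GAL4, which caps N-acetyllactosamine and contributes to selectin ligands, had 140, 173 and 130 CPM against 23.2, 19.7 and 47.3 CPM (log2 fold change 2.30 ± 0.33, adjusted p = 0.000426). ST3GAL6, with a similar activity, rose by 1.19 ± 0.28 on the log2 scale (adjusted p = 0.00623), at 5.26, 5.52 and 6.62 CPM against 2, 3.5 and 2.12 CPM. Its exons overlap DCBLD2 on the opposite strand, which had means of 230 CPM under the LINC00665 label and 668 CPM under the Vector label. ST3GAL2, which acts on core 1 structures and gangliosides, fell by 1.62 ± 0.18 on the log2 scale (adjusted p = 9.04e-05), at 18.5, 19.9 and 20.6 CPM against 47.7, 67.3 and 66.1 CPM. ST3GAL3 and the GM3 synthase ST3GAL5 did not pass the threshold, at log2 fold changes of 0.17 and 0.11 (adjusted p = 0.411 and 0.817).

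The ST3GAL genes summed to 176 ± 7.13 FPKM under the LINC00665 label and 46.3 ± 11.2 FPKM under the Vector label. ST3GAL4 led under both labels, at 57.6 ± 4.45% and 49.0 ± 13.1% of the sum. ST3GAL1 made up 32.6 ± 3.89% under the LINC00665 label and 2.50 ± 0.721% under the Vector label, while ST3GAL2 made up 1.34 ± 0.126% and 17.8 ± 3.83%. ST6GAL1, which sialylates N-glycans, had 38.5, 37.4 and 31.8 CPM against 9.70, 12.2 and 5.69 CPM (log2 fold change 1.96 ± 0.27, adjusted p = 0.000335), and ST6GAL2 had 0 counts in all 6 libraries. In the ST8SIA family, which adds chains of sialic acid, 1 of 6 genes was tested. ST8SIA4, a polysialic acid synthase, had 3.72, 3.57 and 3.45 CPM against 2.66, 3.22 and 0.931 CPM and did not pass the threshold (log2 fold change 0.66, adjusted p = 0.195). The GD3 synthase ST8SIA1 had 35 counts over the libraries labelled LINC00665 and 0 over those labelled Vector, at least 11.6-fold higher with the Vector label set at 3 counts over the group.

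The ST6GALNAC genes, whose products add sialic acid to N-acetylgalactosamine on O-glycans or gangliosides, moved in both directions. All 5 tested genes of 6 passed the threshold, 3 higher and 2 lower, against 63.5% called over all genes tested. The 3 higher genes passed the filter only through the libraries labelled LINC00665. ST6GALNAC2, an O-glycan enzyme, had 12.5, 12.3 and 13.4 CPM under the LINC00665 label and 0, 0.445 and 0 CPM under the Vector label. Its log2 fold change was 6.47 ± 0.72 (adjusted p = 0.0001), or 10.99 without Vector 2 and 5.84 without Vector 1. ST6GALNAC3 and ST6GALNAC5, enzymes of gangliosides, were low. ST6GALNAC3 had 146 and 2 counts in all (ratio 72.6, 95% exact binomial interval 19.7 to 605, log2 fold change 5.93 or 8.56 without Vector 1), and ST6GALNAC5 had 95 and 0 counts (at least 31.5-fold higher). ST6GALNAC1, the sialyl-Tn synthase, had 13 and 0 counts and was not tested.

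ST6GALNAC4, which completes disialylated core 1 structures, had 22.7, 24 and 24.6 CPM in the libraries labelled LINC00665 and 66.6, 142 and 61.4 CPM in those labelled Vector (log2 fold change -1.92 ± 0.32, adjusted p = 0.000927). ST6GALNAC6 had 46.8, 50.5 and 49.3 CPM against 66.4, 131 and 64.7 CPM (log2 fold change -0.84 ± 0.27, adjusted p = 0.0262). Both were highest in Vector 2, and the genes lie 2.48 kb apart on chromosome 9. The ST6GALNAC6 call was lost without LINC00665 1, 2 or 3, with adjusted p = 0.0774, 0.0661 and 0.0625. The family's summed FPKM was 43.2 ± 1.87 under the LINC00665 label and 96.0 ± 44.4 under the Vector label. ST6GALNAC2 made up 22.5 ± 1.37% of it under the LINC00665 label and 0.0544 ± 0.0942% under the Vector label, and ST6GALNAC4 30.9 ± 0.816% and 59.5 ± 1.46%.

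**Figure D3:**
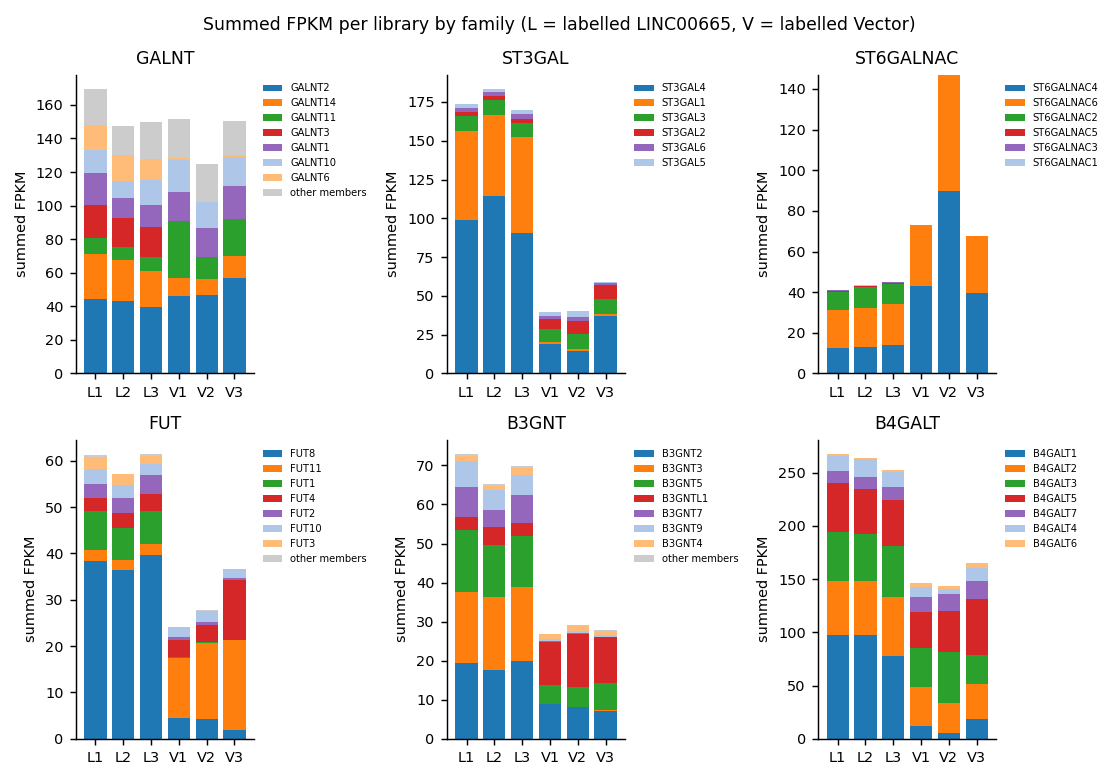
Summed FPKM per library of 6 enzyme families (L, labelled LINC00665; V, labelled Vector), with each member's part stacked. ST3GAL, FUT, B3GNT and B4GALT sums are higher in all 3 libraries labelled LINC00665, the ST6GALNAC sum is lower, and the GALNT sums overlap; the leading gene of the FUT family is FUT8 under the LINC00665 label and FUT11 under the Vector label.

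The fucosyltransferases differed both in sum and in the leading gene. Of 11 FUT genes 8 were tested, 6 were higher, 1 was lower and 1 did not pass the threshold. Over all genes tested 34.2% were higher and 29.3% lower. The higher genes FUT1, FUT3 and FUT9 passed the filter only through the libraries labelled LINC00665. FUT8, which adds the core fucose of N-glycans, had 109, 107 and 106 CPM in the libraries labelled LINC00665 and 11, 11.4 and 4.24 CPM in those labelled Vector (log2 fold change 3.60 ± 0.35, adjusted p = 4.63e-05). FUT11 had 5.40, 4.83 and 4.68 CPM against 25.4, 32.6 and 38.1 CPM (log2 fold change -2.68 ± 0.20, adjusted p = 1.2e-05). FUT8 made up 63.6 ± 1.08% of the family's FPKM under the LINC00665 label and 12.9 ± 6.91% under the Vector label, and FUT11 3.75 ± 0.229% and 55.3 ± 3.18%. The family summed to 60.0 ± 2.37 FPKM under the LINC00665 label and 29.6 ± 6.44 FPKM under the Vector label.

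FUT1 and FUT2 make the H antigen, the base of the ABO blood groups, and lie 42.1 kb apart on chromosome 19. FUT1 had 30.6, 25.7 and 25.8 CPM under the LINC00665 label and 0.233, 0.333 and 0.259 CPM under the Vector label (log2 fold change 6.62 ± 0.25, adjusted p = 3.24e-07). FUT2, the secretor gene, had 7.12, 7.41 and 7.75 CPM against 0.979, 1.17 and 0.673 CPM (log2 fold change 2.98 ± 0.27, adjusted p = 3.3e-05). Neither gene's groups overlapped. FUT3, the Lewis enzyme, had 276 counts over the libraries labelled LINC00665 and 1 over those labelled Vector, a ratio of 274 (95% exact binomial interval 48.9 to 10881). Its edgeR log2 fold change was 7.64 ± 0.57 (adjusted p = 1.05e-05), or 9.53 without Vector 3. FUT3, FUT5 and FUT6 are near-identical copies, and FUT5 had 0 counts while FUT6 had 2 and 0, so the division of reads among them is uncertain.

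FUT4, an enzyme of Lewis x synthesis, had 17.2, 21.4 and 21.7 CPM against 20.6, 21.3 and 73.2 CPM, so that only Vector 3 stood apart. It did not pass the threshold (log2 fold change -0.93 ± 0.47, adjusted p = 0.115), and the adjusted p was 0.0365 without Vector 2. FUT9, which makes Lewis x in the nervous system, had 4.23, 2.57 and 4.15 CPM against 1.91, 1.89 and 0.466 CPM (log2 fold change 1.36 ± 0.49, adjusted p = 0.0377), and the call was lost without LINC00665 1, 2 or 3 (adjusted p = 0.108, 0.0545 and 0.113). FUT10 passed the threshold with a small change (log2 fold change 0.52 ± 0.19, adjusted p = 0.0424). Its call was lost without LINC00665 1, 2 or 3 (adjusted p = 0.181, 0.104 and 0.0527) and without Vector 1 or 3 (0.0993 and 0.0662), and its exons overlap TTI2. FUT7, which makes the selectin ligand sialyl Lewis x in leukocytes, had 0 counts in all 6 libraries.

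The other members not tested had few or no counts. GALNT8, GALNTL5 and ST8SIA3 had 0 counts in all 6 libraries, which for each label allows up to 3 counts over its libraries. GALNT9 had 43 counts over the libraries labelled LINC00665 and 3 over those labelled Vector (ratio 14.3, 95% exact binomial interval 4.56 to 71.8), GALNT13 had 17 and 0 (at least 5.64-fold higher), and ST8SIA6 had 16 and 0 (at least 5.30-fold higher). B3GALT1, B3GALT2, GALNT15, GALNT17, GALNTL6, ST8SIA2 and ST8SIA5 had at most 7 counts over the libraries of either label.

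Of the tested genes listed under sialic acid and fucose donor supply, 8 of 15 were lower and 2 higher, against 29.3% lower and 34.2% higher over all genes tested, whose median log2 fold change was 0.03. The lower genes include SIAE and CASD1, which act on acetyl groups of sialic acid and do not supply the donor. Of 9 tested genes of the sialic acid list, 5 were lower, 2 higher and 2 did not pass the threshold. The median log2 fold change was -0.73 with SIAE and CASD1 included. With these left out, the middle value of the list is that of NANS, 0.26, so -0.73 does not describe donor supply. SIAE, an esterase that removes acetyl groups from sialic acid, had 1.97, 1.24 and 1.87 CPM under the LINC00665 label and 9.51, 10.3 and 8.20 CPM under the Vector label (log2 fold change -2.45 ± 0.25, adjusted p = 6.53e-05). GNE, which makes the first committed precursor of sialic acid, had 37.7, 32.2 and 40.0 CPM against 73.8, 85.0 and 71.6 CPM (log2 fold change -1.07 ± 0.15, adjusted p = 0.000401). CMAS, which activates sialic acid, and SLC35A1, which carries it into the Golgi, were also lower (log2 fold changes -0.73 and -1.07, adjusted p = 0.00278 and 0.00311), as was CASD1 (-1.69, adjusted p = 0.000435). RENBP and NANP were higher, NANP by a log2 fold change of 1.02. RENBP had 45 counts under the LINC00665 label and 0 under the Vector label, at least 14.9-fold higher. It passed the filter only through the libraries labelled LINC00665. NANS and NAGK did not pass the threshold, at log2 fold changes of 0.26 and 0.36. Of 6 tested genes of fucose donor supply, 3 were lower and none higher, with a median of -0.72. FPGT, which activates salvaged fucose, was at 2.73, 3.18 and 2.74 CPM against 15.9, 12.6 and 14.4 CPM (log2 fold change -2.30 ± 0.20, adjusted p = 2.52e-05), GFUS, the last enzyme of GDP-fucose synthesis, had a log2 fold change of -1.06 ± 0.15 (adjusted p = 0.000379), and SLC35C2 one of -1.16 (adjusted p = 0.000629). Of 14 tested genes of UDP-galactose and UDP-HexNAc supply, 6 were higher, 3 lower and 5 did not pass, with a median of 0.12. They were led by GFPT2, an entry enzyme of the hexosamine pathway (log2 fold change 2.38 ± 0.25, adjusted p = 6.59e-05), and the galactokinase GALK1 (0.87 ± 0.16, adjusted p = 0.00167).

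Other enzymes of the same glycans went in both directions. Of 8 tested blood group, globo and GalNAc-capping genes, 5 were higher and 2 lower (median log2 fold change 1.35), among them B4GALNT4 (3.24 ± 0.34, adjusted p = 7.39e-05) and the ganglioside GM2/GD2 synthase B4GALNT1 (-1.67 ± 0.20, adjusted p = 0.000135). Of the higher genes, B4GALNT2 and GBGT1 were below the filter level in at least 1 library labelled Vector. The median was 0.60 over the 6 genes at that level in all libraries of both labels. Of 9 tested N-glycan branching genes, 3 were higher, 2 lower and 4 did not pass (median -0.07). These included the Golgi mannosidase MAN2A1 (-1.46 ± 0.15, adjusted p = 6.82e-05) and the branching enzyme MGAT4A (2.05 ± 0.38, adjusted p = 0.00174). The higher gene MGAT3 was below the filter level in at least 1 library labelled Vector. The median was -0.15 over the 8 genes at that level in all libraries of both labels. Of 9 tested O-fucose and other O-glycan initiator genes, 2 were higher and 5 lower (median -0.49), with the Notch-modifying enzyme LFNG at 3.80 ± 0.28 (adjusted p = 9.58e-06) and EOGT at -1.81 ± 0.20 (adjusted p = 9.9e-05). Of 10 tested glycosidases, 3 were higher and 4 lower (median -0.18). HEXA, a lysosomal hexosaminidase subunit present in most cells, had 94.4, 110 and 75.1 CPM under the LINC00665 label and only 0.14, 0.167 and 0.207 CPM under the Vector label (log2 fold change 9.05 ± 0.29, adjusted p = 1.86e-07). It passed the filter only through the libraries labelled LINC00665. The glycosidase median was -0.33 over the 9 genes at the filter level in all libraries of both labels.

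Most of the tested genes for proteins that carry these glycans were higher under the LINC00665 label, but most of these higher genes passed the filter only through its libraries. Of 26 mucins and mucin-like carriers 14 were tested, 11 were higher, none was lower and 3 did not pass the threshold. Over all genes tested 34.2% were higher and 29.3% lower. The carriers' median log2 fold change was 5.35, or 5.15 with the 2 genes at 0 counts under the Vector label set at their lower bounds. Of the 11 higher genes, 9 were below the filter level in at least 1 library labelled Vector and passed the filter only through the libraries labelled LINC00665, so the count and the median are descriptions that the filter partly sets. The median was 2.60 over the 4 carriers that reached the filter level in all libraries of both labels, of which 2 were higher. MUC4, a membrane mucin, had 402, 263 and 351 CPM under the LINC00665 label and 0.186, 0.167 and 0.0517 CPM under the Vector label (log2 fold change 11.22 ± 0.36, adjusted p = 1.9e-07). PODXL, a sialomucin of podocytes and carcinoma cells, had 607, 697 and 606 CPM against 6.90, 4.78 and 8.90 CPM (log2 fold change 6.53 ± 0.27, adjusted p = 4.6e-07). MUC16, a large membrane mucin, had 171, 97.5 and 129 CPM against 0.466, 3.55 and 0.259 CPM (log2 fold change 6.57, adjusted p = 0.000149, and 8.46 without Vector 2). CD24 had 317, 355 and 317 CPM against 5.36, 22.9 and 1.91 CPM (log2 fold change 5.04, adjusted p = 0.000715, and 6.48 without Vector 2). Vector 2 was the highest library of its label for both genes. MUC1, CD164 and CD44 did not pass the threshold (-1.19, -0.60 and 0.17, adjusted p = 0.0771, 0.0851 and 0.307), and without Vector 2 MUC1 and CD164 passed it as lower (adjusted p = 0.02 and 0.000967). The secreted mucin MUC5B was not tested and went the other way, with 1 count under the LINC00665 label and 62 under the Vector label (ratio of Vector to LINC00665 62.3, 95% exact binomial interval 10.8 to 2501). Its mean under the Vector label was 1.11 CPM, or 0.355 CPM without Vector 2. Of 4 tested galectins, the lectins that bind galactose, LGALS9 and LGALS3 were higher (7.81 ± 0.40 and 3.81 ± 0.26, adjusted p = 1.4e-06 and 6.22e-06), LGALS1 was lower (-1.45 ± 0.15, adjusted p = 7.86e-05) and LGALS8 did not pass. LGALS9 was below the filter level in at least 1 library labelled Vector, and its log2 fold change was 8.65 without Vector 2. Of 6 tested glycan sulfotransferases 4 were higher, 3 of them below the filter level in at least 1 library labelled Vector, and 2 lower (median 2.78). The lower gene GAL3ST1 was below that level in at least 1 library labelled LINC00665. Over the 2 genes at the filter level in all libraries of both labels the median was 0.37. CHST6, the corneal keratan sulfate enzyme, had 350 and 3 counts (ratio 116, 95% exact binomial interval 39.4 to 565), and its log2 fold change was 6.70, or 7.48 without Vector 1. GAL3ST1, which makes sulfatide, had 0.14, 0.21 and 0.0538 CPM under the LINC00665 label and 10.8, 29.8 and 2.69 CPM under the Vector label (log2 fold change -6.67 ± 1.05, adjusted p = 0.000709, and -5.58 without Vector 2).

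**Figure D4:**
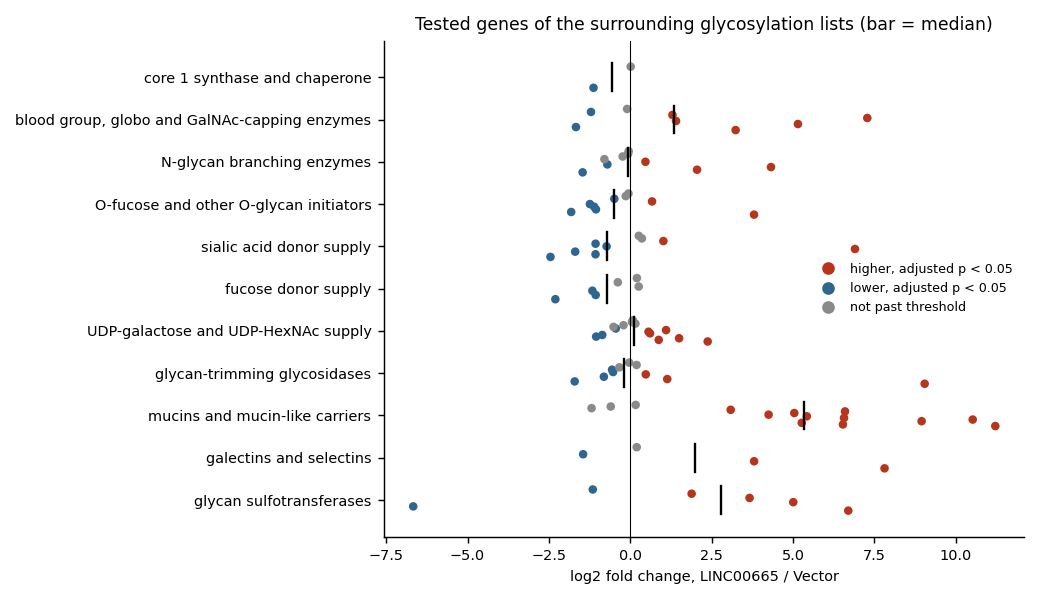
Log2 fold change (LINC00665 over Vector, x axis) of each tested gene in 11 lists of surrounding glycosylation genes, coloured by the edgeR call, with a black bar at each list's median. The medians shown include 5.35 for mucins and mucin-like carriers, where 9 of the 11 higher genes passed the filter only through the libraries labelled LINC00665, and -0.73 and -0.72 for the sialic acid and fucose donor lists. The sialic acid list includes SIAE and CASD1, which do not supply the donor, and its other genes went in both directions.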

How the data were processed

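RNA was measured in 6 libraries, 3 labelled LINC00665 and 3 labelled Vector. The deposited table lists 20289 genes, each with an expected count and an FPKM value for every library, per the file headers. The expected counts as deposited are not normalised, and 88.3 to 89.4% are whole to the decimals given. The FPKM values were scaled by the authors to gene length and depth, as the unit in the file headers states. HISAT2 2.0.4 and hg38 were used, per the submitters' processing notes, with no role stated. Counting tool, annotation and strand setting: not given in the sources used here, so that reads of overlapping genes and near-identical copies cannot be divided with certainty. Exons of 21 of the 78 members overlap exons of another, protein-coding gene in GENCODE v29, 16 of these were tested and 10 called. Overlaps with non-coding genes are not in this count.

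Expected counts were rounded to whole numbers. After filterByExpr and TMM scaling, edgeR 4.0.16 in R 4.3.3 (glmQLFit, glmQLFTest, no covariate) gave the tests. Adjusted p is Benjamini-Hochberg over 13552 genes, with a threshold of 0.05, and sign and size are LINC00665 over Vector. Standard errors come from the F statistic and the fold change. CPM is the expected count scaled to the TMM effective library size. A group at 0 counts is set at 3 counts over its 3 libraries for a lower bound, and intervals for 1 to 3 counts are exact 95% binomial. The reads carry no molecular identifiers, so bounds and intervals cover counting error only. Levels of different genes are compared by FPKM only. The fit was tested on simulated data.

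Members and gene lists were chosen with earlier results of these data known. Named members are those past the threshold with a log2 fold change of 1 or more in size and a mean of 5 CPM or more under one label, the member of each family with the highest FPKM under each label, and the 2 genes of each list with the smallest p. Some of the items selected in these ways are not reported here. Other genes, such as MUC16 and CASD1, were added after their values were seen. Promoter windows were matched by symbol in the RefSeq table, and protein sequences were not used here.

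No library was a duplicate of another (chi-square per degree of freedom between libraries of 1 label 9.85 to 116). Biological coefficients of variation were 12.9% for LINC00665 and 28.7% for Vector. Alternatives were other size factors, total counts, other filters, DESeq2 1.42.0, limma 3.58.1 (voom, and trend on log2(FPKM + 1) and log2(FPKM + 0.1)), a replicate block, a threshold of 0.01 and leaving out each library. Figures were drawn with matplotlib 3.10.9.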

Additional observations from a re-analysis of the deposited data

How the results depend on the processing

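Of 32 members named by rule or leading their family, 30 kept their side of the threshold under all 16 alternatives that gave them a value. Of these, GALNT2, B3GALT6 and GCNT2, which did not pass it, changed sign in some alternatives. Their log2 fold changes ranged from -0.23 to 0.03, -0.26 to 0.18 and -0.10 to 0.14. ST6GALNAC6 and B4GALT5 changed with the libraries left out as described above. ST6GALNAC6 also missed a threshold of 0.01 (adjusted p = 0.0262). No called member reversed. Small calls were lost elsewhere: FUT10 under total counts (adjusted p = 0.127), without a filter (0.051) and on log2(FPKM + 1) and log2(FPKM + 0.1) (0.175 and 0.223), and FUT9 under total counts (0.0585) and on the same FPKM scales (0.0868 and 0.0521). B4GALT7 passed under total counts (0.03) and on log2(FPKM + 1) (0.0272), and GALNT4 under total counts (0.0368), on log2(FPKM + 1) (0.032) and on log2(FPKM + 0.1) (0.0472). With genes kept only at 1 CPM or more in all 6 libraries, 39 members were tested and 14 were higher (30 in the main test), their median log2 fold change was 0.26, and the surrounding lists had 19 higher genes (38 in the main test), since that filter removes genes near 0 under one label. On log2(FPKM + 1) with limma-trend the members' median was 0.37, a scale on which the added 1 shrinks the changes of low genes. Scaling by total counts moved the median of all genes to -0.13 from 0.03, with 28 members higher and 11 lower. Leaving out each library gave 28 to 32 members higher and 7 to 10 lower, a member median of 0.86 to 1.04, 35 to 42 higher and 26 to 32 lower genes in the lists, and 4142 to 5033 higher and 3275 to 4225 lower genes over all. Replicate numbers did not pair the libraries, with correlations of deviations of 0.15, -0.13 and -0.15 for equal numbers, and not every library correlated best with its own number. With the replicate number as a block, 28 members were higher and 8 lower, with FUT9, FUT10 and B3GALT9 lost (adjusted p = 0.0658, 0.0892 and 0.0931), and 4419 and 3505 genes over all. Genes under about 3 counts over a group limit the detectable folds.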

Other observations

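Some of the enzymes lie beside each other on a chromosome. ST6GALNAC3 and ST6GALNAC5 lie 233 kb apart on chromosome 1 and were both higher under the LINC00665 label, as were FUT1 and FUT2 on chromosome 19. ST6GALNAC4 and ST6GALNAC6 on chromosome 9 were both lower. GALNT11 was lower, while GALNTL5, 5.74 kb away on chromosome 7, had 0 counts in all 6 libraries. B4GALT2 was higher, with a log2 fold change of 0.90, and ST3GAL3, 47.8 kb away on chromosome 1, did not pass the threshold, with 0.17.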
